A study of Homo sapiens with 5 samples.

Results

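Genes of transgene silencing and repressive chromatin were followed in nascent RNA of human HEK293T cells: SETDB1, MPHOSPH8, MORC2, DNMT3A, DNMT3B, EZH2, SUZ12, EED, CBX5 and SUV39H2. They were chosen by Ensembl identifier from a list by function, not by a measured value, though with earlier results of these data known. They are 10 of the 20001 genes in the count table. All 10 passed the filter on low counts, as did 13400 genes in all. HEK293T was derived from embryonic kidney and expresses large T antigen of the virus SV40. Each clonal line had a landing pad, a genomic site that accepts inserted DNA, with either the CAG promoter, a synthetic hybrid of high activity (3 libraries), or the PGK promoter, taken from a glycolytic housekeeping gene (2 libraries). The assay was PRO-seq, a run-on in which engaged polymerases add biotin-labelled nucleotides, so that counts report engaged polymerases and not stored RNA. The counted part of a gene is not stated in the sources used here. Polymerases near the start and along the gene were therefore not told apart. How many clones stand behind each promoter, and whether replicates were separate cultures, is not given in the sources used here. Effects of promoter and clone therefore cannot be told apart, and the spread behind each p-value is that between libraries and may be technical. The labels name no batch.

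Inserted genes are often shut down by the same systems that keep repeats and viral DNA silent. The HUSH complex, which contains MPHOSPH8, recognises such DNA and works with the histone H3 lysine 9 (H3K9) methyltransferase SETDB1 and the ATPase MORC2. CBX5 binds methylated H3K9, and SUV39H2 adds more of the mark. Polycomb repressive complex 2 (PRC2), with EZH2, SUZ12 and EED at its core, methylates H3 lysine 27, and DNMT3A and DNMT3B place new methyl groups on DNA.

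Of these genes, EZH2 and SUV39H2 rose in the CAG line by 45.4% and 40.6%, and SUZ12 fell by 13.5%. The other 7 genes did not pass the test. The log2 fold change was -0.21 for DNMT3B. It was at most 0.10 in size for SETDB1, MPHOSPH8 and MORC2 of the HUSH pathway and for DNMT3A, EED and CBX5. Of the 10 genes 3 were therefore called, 2 higher and 1 lower, against 43.4% of all tested genes called in either direction (22.7% higher, 20.7% lower). Calls were made by edgeR's quasi-likelihood test at a Benjamini-Hochberg adjusted p under 0.05 over all 13400 genes. The share of the 10 genes was near that of all tested genes, and nothing particular to the 10 is read from it. The median size of the change was 0.079 on the log2 scale in the 10 genes and 0.25 in all tested genes. The 10 genes also held more counts, with a median of 107 CPM (depth-scaled counts, defined below) against 47.5 CPM. As CPM is not divided by gene length, this shows no higher rate of transcription. Their median SE was 0.079 against 0.10. None of the 10 changed 2-fold, and 7.18% of all tested genes did.

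Library totals ran from 3712105 counts in PGK replicate 2 to 5864157 in CAG replicate 3. The 2 PGK libraries differed from each other more than any pair of CAG libraries did, with a chi-square per degree of freedom over the tested genes of 4.40, against 1.63 to 1.83 for the 3 CAG pairs, where counting error alone gives about 1. The results for SUZ12 and MPHOSPH8 depended on which PGK library was kept and are given below with and without each. The 10 genes together held 0.127%, 0.133% and 0.133% of the counts of the CAG libraries, against 0.119% and 0.124% in the PGK libraries. Levels below are CPM, counts scaled to the TMM-adjusted size of the library, not divided by gene length, so they are compared between lines and not between genes. By mean CPM, 50.7% of tested genes lay at or below DNMT3B, the lowest of the 10, and 96.2% at or below CBX5, the highest. These ranks describe how many counts each gene rested on and not its rate of transcription.

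**Figure D1:**
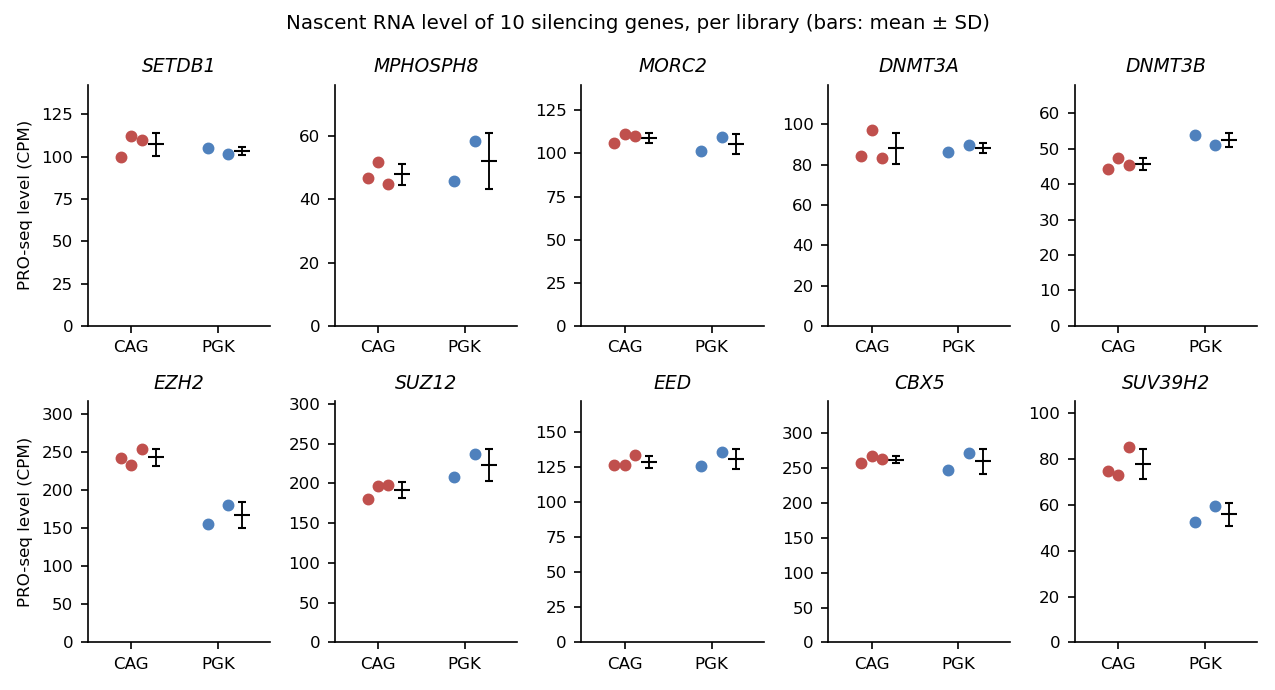
Nascent RNA level in CPM (vertical axes from 0) of each gene in the 3 CAG libraries (red) and the 2 PGK libraries (blue), 1 point per library, with the mean ± SD in black. EZH2 and SUV39H2 lay higher in all CAG libraries, SUZ12 and DNMT3B lay lower, and the points of the other 6 genes overlapped.

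**Figure D2:**
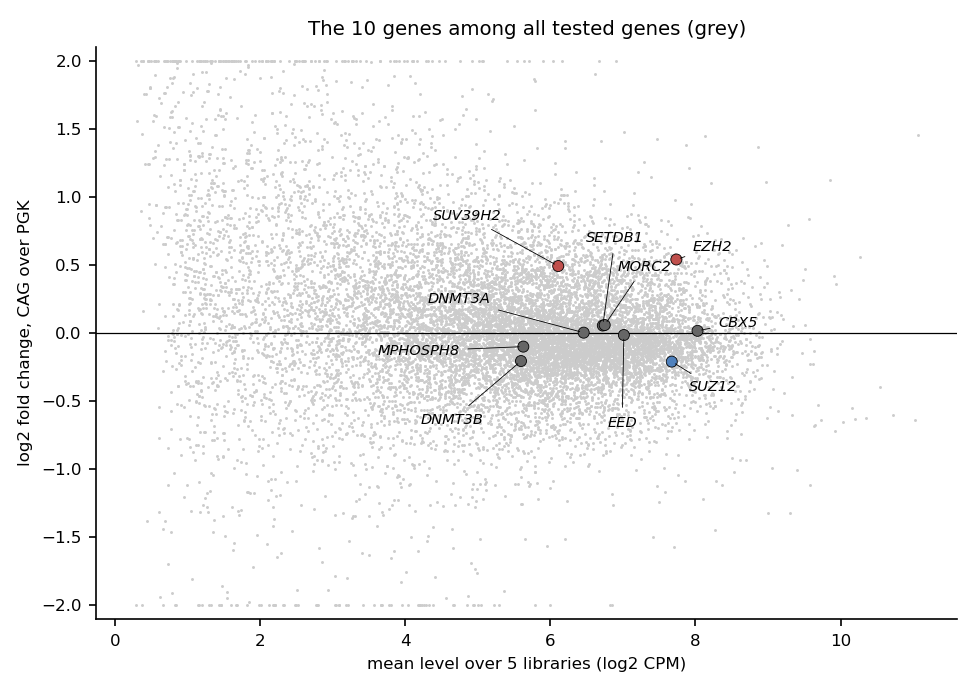
The log2 fold change of CAG over PGK against the mean level over the 5 libraries (log2 CPM) for all 13400 tested genes (grey; changes beyond 2 are drawn at the edge) and the 10 genes (red higher, blue lower, dark grey not called). The 10 genes lie between -0.21 (SUZ12) and 0.54 (EZH2), within the cloud of genes of their level.

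The sequences around the transcription starts of the 3 called genes are shown first, as stretches of 30 bases with the matched motif in capitals. They come from RefSeq (GRCh38.p14), read 5′ to 3′ on the strand of the gene, from windows of 250 bases before to 50 bases after each start. EZH2 and SUZ12 carried an E2F motif, which cell-cycle factors of the E2F family bind. SUV39H2 carried the CRE palindrome, bound by CREB and ATF factors, and a YY1 motif. EZH2 also held 4 CCAAT boxes, the motif of the factor NF-Y, in 1 window, and the one nearest its start is shown.
EZH2, E2F motif, chr7:148884272-148884301, minus strand: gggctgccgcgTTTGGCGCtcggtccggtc
EZH2, CCAAT box read on the other strand, chr7:148884287-148884316, minus strand: aaagcgatggcgATTGGgctgccgcgtttg
SUZ12, E2F motif, chr17:31936807-31936836, plus strand: cgacccctaatTTTCCCGCgaattcagttc
SUV39H2, CRE palindrome, chr10:14878739-14878768, plus strand: tcggccgccagTGACGTCAggacgccgtgc
SUV39H2, YY1 motif, chr10:14878875-14878904, plus strand: gaaagctctacAAGATGGCggcggtcgggg

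The E2F letters searched were TTTCCCGC, TTTGGCGC and TTTCGCGC on both strands, and 2 of the 10 genes, EZH2 and SUZ12, held one, against 2.74% of 35116 RefSeq promoter windows. These 2 genes moved in opposite directions. CCAAT was found in 7 of the 10 genes and in 34.6% of all windows, and at least 4 copies in 0.991% of windows. TGACGTCA stood in 1.85% of windows and AAGATGGC in 2.89%, each in 1 of the 10 genes, SUV39H2. The motif of NRF1 was found in EZH2, EED, CBX5 and SUV39H2 and in 5.78% of windows. The ETS motif CCGGAAG was found in 1 gene, SETDB1, and in 10.3% of windows, and the SP1 motif GGGCGG in 7 genes and in 45.0% of windows. Genes with several annotated starts had several chances of a match, as the 10 genes had 19 windows. Any start of a gene outside these windows was not searched. None of the printed matches overlapped another motif of the search. A match in these letters is a description and shows no binding.

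The windows also differed in CpG content, the dinucleotide that DNMT3A and DNMT3B methylate. EZH2 had 46 and 45 CpGs in its 2 windows of 300 bases, SUV39H2 had 44 and SUZ12 had 40, where the median of all windows was 14. DNMT3B had 3 CpGs in its single window, and whether that window holds the main start of the gene was not examined. DNMT3A had 18 to 46 over its 6 windows. Of the other genes not called, MORC2 had 35, MPHOSPH8 31, EED 16, SETDB1 15 and 22, and CBX5 25, 4 and 6. Counts above the median of all windows were therefore not limited to the called genes.

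PRC2 held a called rise, a called fall and a gene that was not called. EZH2 (ENSG00000106462), the catalytic subunit, had 242, 233 and 255 CPM in the CAG libraries, against 156 and 180 CPM in the PGK libraries. Its lowest CAG library stood 0.37 above its highest PGK library on the log2 scale. Means were 243 ± 10.7 CPM in the CAG line (SD, n = 3) and 168 ± 17.2 CPM in the PGK line (SD, n = 2), a log2 fold change of 0.54 ± 0.081 (SE) with an edgeR adjusted p of 5.47e-06. The rise of EZH2 was larger in size than the changes of 77.8% of tested genes.

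SUZ12 (ENSG00000178691), the subunit that holds the complex together, had 180, 197 and 198 CPM in the CAG libraries and 208 and 237 CPM in the PGK libraries. The lines did not overlap, but the gap between the nearest libraries was 0.073 on the log2 scale. SUZ12 averaged 192 ± 9.88 CPM in the CAG line (n = 3) and 223 ± 20.2 CPM in the PGK line (n = 2), with a log2 fold change of -0.21 ± 0.078 (SE; edgeR adjusted p = 0.0314). This call was lost when any 1 library other than PGK replicate 1 was left out: the adjusted p in edgeR then lay between 0.0594 and 0.216, and the log2 fold change was smallest in size, -0.12, without PGK replicate 2. DESeq2, which called 30.3% of all tested genes (16.4% higher, 13.8% lower), called EZH2 and SUV39H2 higher but not SUZ12 (adjusted p = 0.067). RefSeq lists 2 SUZ12 pseudogenes, SUZ12P1 and SUZ12P2, and whether reads of such copies were kept apart is not known here.

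EED (ENSG00000074266), the subunit that binds the finished lysine 27 mark, had 126, 126 and 133 CPM in the CAG libraries against 125 and 135 CPM in the PGK libraries. The PGK values enclosed the CAG values. Its log2 fold change was -0.015, with a 95% interval from -0.16 to 0.13, so that a change of the size seen in EZH2 lay outside the interval.

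The balance between the PRC2 genes was read within each library, where sequencing depth cancels. Counts are not divided by gene length, so only the change of a ratio between lines is read. For each count of SUZ12 there were 1.34, 1.18 and 1.29 counts of EZH2 in the CAG libraries, against 0.749 and 0.761 in the PGK libraries. All CAG ratios lay above both PGK ratios. The mean ratio was 1.68-fold higher in the CAG line. EZH2 over EED was 1.92, 1.85 and 1.91 in the CAG libraries and 1.24 and 1.33 in the PGK libraries, a ratio 1.47-fold higher. SUZ12 over EED moved less, with 1.43, 1.56 and 1.49 in the CAG libraries and 1.66 and 1.75 in the PGK libraries. For each of these ratios an exact two-sided permutation test over the libraries gave p = 0.2. This p is the smaller tail share, doubled, and 0.2 is its smallest value with 10 ways of dividing 5 libraries. The PRC2 ratios, and that of CBX5 to SUV39H2 below, were chosen after the levels had been seen. They restate the changes of the single genes, and their separation is no separate evidence. Leaving out each library in turn, the log2 difference of EZH2 over SUZ12 ran from 0.71 to 0.80.

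**Figure D3:**
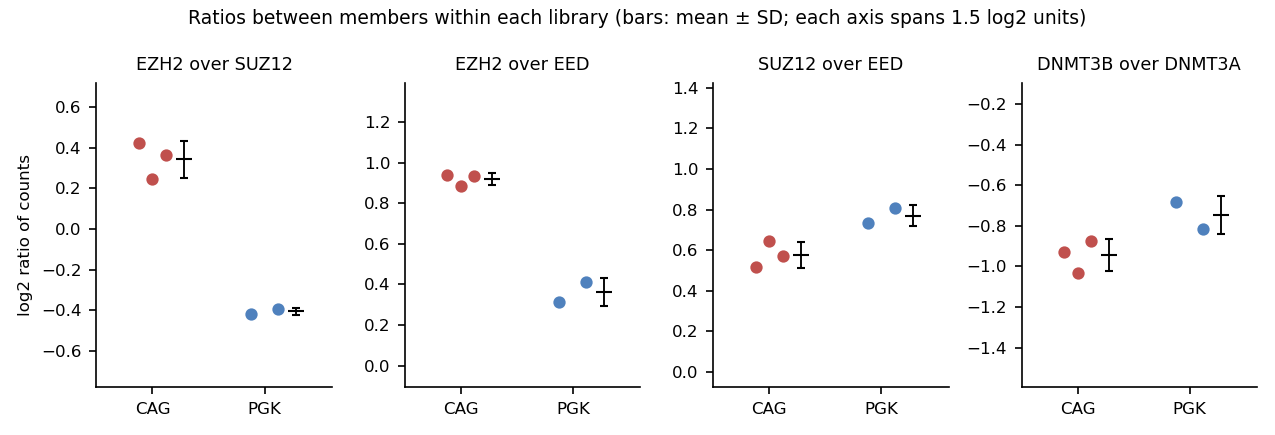
Log2 ratio of the counts of 2 genes within each library, in the 3 CAG libraries (red) and the 2 PGK libraries (blue), with the mean ± SD in black; each vertical axis spans the same 1.5 log2 units. The lines separate most in EZH2 over SUZ12, with means of 0.34 (CAG) and -0.41 (PGK).

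Of the 2 genes of H3K9 methylation outside HUSH, SUV39H2 was called and CBX5 was not. SUV39H2 (ENSG00000152455), which adds methyl groups to H3K9 in constitutive heterochromatin, had 75.1, 73.0 and 85.2 CPM in the CAG libraries, against 52.5 and 59.4 CPM in the PGK libraries. All CAG libraries lay above both PGK libraries, by at least 0.30 on the log2 scale. Its means were 77.8 ± 6.57 CPM in the CAG line (n = 3) and 56.0 ± 4.92 CPM in the PGK line (n = 2). The log2 fold change was 0.49 ± 0.093 (SE), and edgeR gave an adjusted p of 0.000118. RefSeq places DCLRE1C, a DNA repair gene, over part of SUV39H2, and the strand setting of the counting is not given in the sources used here, so reads of the 2 genes may not have been kept apart.

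CBX5 (ENSG00000094916) encodes HP1 alpha, which reads methylated H3K9. It had 257, 267 and 263 CPM in the CAG libraries and 247 and 272 CPM in the PGK libraries, which lay on both sides of all 3 CAG values. The log2 fold change was 0.016 with a 95% interval from -0.14 to 0.17, a fold of 0.907 to 1.13. For each count of SUV39H2 there were 3.42, 3.66 and 3.08 counts of CBX5 in the CAG libraries, against 4.71 and 4.58 in the PGK libraries. Every CAG ratio was below both PGK ratios. The exact two-sided permutation test over the libraries gave p = 0.2, again the smallest value of the doubled tail share. CBX5 itself hardly changed, so this ratio mostly repeats the change of SUV39H2. Reads over CBX5 may include those of SCAT2, a non-coding RNA that overlaps it in RefSeq.

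The HUSH pathway gave no call. SETDB1 (ENSG00000143379) had 99.7, 112 and 110 CPM in the CAG libraries against 105 and 101 CPM in the PGK libraries, and the lines overlapped. Its log2 fold change was 0.055, with a 95% interval from -0.098 to 0.21 and an edgeR adjusted p of 0.582. MORC2 (ENSG00000133422), the ATPase that compacts chromatin at HUSH targets, had 106, 112 and 110 CPM in the CAG libraries and 101 and 109 CPM in the PGK libraries. Its log2 fold change of 0.059 had an interval from -0.089 to 0.21 and an adjusted p of 0.541 in edgeR. MORC2-AS1, a non-coding RNA, overlaps MORC2 in RefSeq.

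MPHOSPH8 (ENSG00000196199) carries the chromodomain with which HUSH binds methylated H3K9. It had 46.8, 51.6 and 44.9 CPM in the CAG libraries, against 45.7 and 58.3 CPM in the PGK libraries. The PGK libraries differed from each other more than the lines did: their coefficient of variation was 17.1%, where counting alone gives 6.55%. The log2 fold change was -0.10 with an interval from -0.32 to 0.12 (edgeR adjusted p = 0.485). PGK replicate 2 set its direction: without that library the log2 fold change was 0.061, and without PGK replicate 1 it was -0.30 with an adjusted p of 0.0472 in edgeR. PSPC1 overlaps MPHOSPH8 in RefSeq.

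Of the de novo DNA methyltransferases, DNMT3A (ENSG00000119772) had 84.0, 96.9 and 83.4 CPM in the CAG libraries and 86.3 and 89.7 CPM in the PGK libraries. The spread of the CAG libraries covered both PGK values. Its means were 88.1 ± 7.63 CPM in the CAG line (n = 3) and 88.0 ± 2.39 CPM in the PGK line (n = 2), and the log2 fold change of 0.0028 had a 95% interval from -0.17 to 0.17. DNMT3B (ENSG00000088305) had 44.1, 47.5 and 45.4 CPM in the CAG libraries, against 53.9 and 51.0 CPM in the PGK libraries. All CAG libraries lay below both PGK libraries, with a gap of 0.10 on the log2 scale. The log2 fold change of DNMT3B was -0.21 ± 0.097 (SE). It had an unadjusted p of 0.0432 and an adjusted p of 0.0882 in edgeR and was not called. Its estimate was about that of SUZ12, but DNMT3B rested on 182 to 304 counts per library and SUZ12 on 845 to 1175.

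The count ratio of DNMT3B over DNMT3A was 0.525, 0.490 and 0.545 in the CAG libraries and 0.624 and 0.569 in the PGK libraries. Each CAG ratio was below both PGK ratios, and the difference of the means was -0.20 on the log2 scale. The exact two-sided permutation test gave p = 0.2, the smallest value that the doubled tail share can take with these libraries.

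Libraries of the lines did not overlap for 4 of the 10 genes, EZH2 and SUV39H2 with CAG higher and SUZ12 and DNMT3B with CAG lower. Over all tested genes 61.2% did not overlap (30.9% with CAG higher, 30.4% with CAG lower). Without PGK replicate 1 the count for the 10 genes was 7, beside 82.6% of all tested genes, and without PGK replicate 2 it was again 7, beside 78.1%. Without CAG replicate 1, 2 or 3 it was 6, 5 or 4, beside 66.8%, 67.6% and 67.9% of all tested genes.

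**Figure D4:**
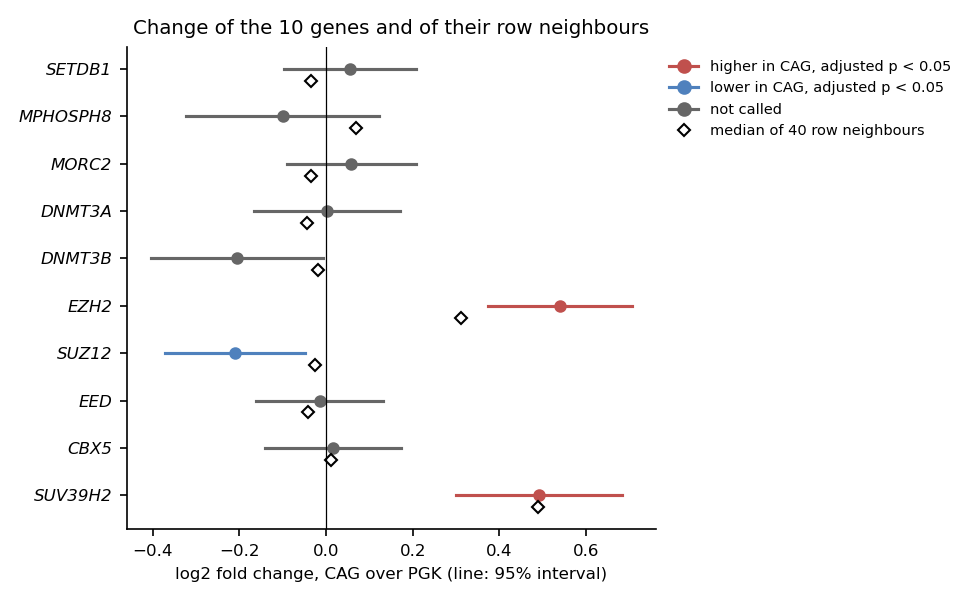
Log2 fold change of CAG over PGK for the 10 genes (circles, with 95% intervals; red higher, blue lower, grey not called) and the median log2 fold change of the 40 tested rows beside each gene (open diamonds). The circle and the diamond of SUV39H2 coincide at 0.49, those of EZH2 stand at 0.54 and 0.31, and the diamonds of the other 8 genes lie between -0.044 and 0.069.

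Genes in neighbouring rows of the table can share a change between these lines, so each gene was set beside the 20 tested rows before it and the 20 after it. The sources used here do not describe the row order. In RefSeq the 10 genes lie on 10 different chromosomes (1, 2, 7, 10, 11, 12, 13, 17, 20 and 22), and their rows in the table rose in that same order. The neighbours carry no gene names in the files and are given as groups.

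The change of SUV39H2 was close to the median of the rows around it. That median log2 fold change, over 40 neighbours, was 0.49. Of these neighbours 33 were called higher and 0 lower, and 20 had a lower log2 fold change than SUV39H2. Relative to the mean of the lines, SUV39H2 stood at 0.19, 0.15 and 0.37 on the log2 scale in the CAG libraries and at -0.33 and -0.15 in the PGK libraries. The median neighbour stood at 0.25, 0.24 and 0.28 in the CAG libraries and at -0.26 and -0.22 in the PGK libraries. Once the level of the neighbours was taken out in the fit, the log2 fold change of SUV39H2 was 0.0031, with an edgeR adjusted p of 0.987.

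EZH2 rose more than its neighbours as a group. Their median log2 fold change was 0.31, with 20 of 40 called higher and 0 lower, and 31 of them had a lower log2 fold change than EZH2. With that level taken out, EZH2 had a log2 fold change of 0.23 and was called in edgeR with an adjusted p of 0.0362, where 25.7% of all tested genes were called (12.5% higher, 13.2% lower). EZH2 was the only 1 of the 10 genes called in that fit. The level of the neighbours was estimated from the same libraries and entered the fit as a fixed value. The p-values of that fit therefore do not carry its error. The margin was narrow: above the median of the neighbours, EZH2 stood at 0.11, 0.034 and 0.21 in the CAG libraries, against -0.28 and 0.0031 in the PGK libraries. The difference of EZH2 from the median of its neighbours was 0.12 without PGK replicate 1 and 0.34 without PGK replicate 2. The rows on the 2 sides differed, as was seen after the data were examined. The 20 rows before EZH2 had a median of 0.11 with 5 called higher, and the 20 rows after it a median of 0.39 with 15 called higher. EZH2 lay 0.43 above the median of the rows before it and 0.15 above that of the rows after it. The fit took out 1 median for both sides, and the excess over either side alone was not tested. ENSG00000127399, 15 rows after EZH2, had 231, 233 and 248 counts in the CAG libraries and 0 in both PGK libraries. Without it the median of the remaining 39 neighbours was 0.30.

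SUZ12 lay in rows with little shared change. The median of its 40 neighbours was -0.025, with 4 called higher and 7 lower, and 9 had a lower log2 fold change than SUZ12. With that level taken out, the log2 fold change of SUZ12 was -0.18 and it was no longer called (edgeR adjusted p = 0.084). DNMT3B stood 0.19 below the median of its neighbours, of which 5 of 40 had a lower log2 fold change. For SETDB1, MORC2, DNMT3A, EED and CBX5 the difference from the neighbours was between 0.0037 and 0.094 on the log2 scale, and for MPHOSPH8 it was -0.17. Most of these differences depended on which library was left out, while that of DNMT3B ran only from -0.22 to -0.17. Without PGK replicate 1 that of MPHOSPH8 was -0.39 and without PGK replicate 2 it was -0.0091. Without PGK replicate 1 the differences of DNMT3A, EED and CBX5 turned to -0.016, -0.012 and -0.23, and without PGK replicate 2 they were 0.11, 0.11 and 0.14. Without CAG replicate 2 that of DNMT3A was -0.0065, and without CAG replicate 3 that of CBX5 was -0.016. The difference of MORC2 was 0.017 without PGK replicate 1 and 0.16 without PGK replicate 2, and that of SETDB1 ran from 0.050 to 0.14 over the 5 libraries left out in turn. With 40 rows on each side MPHOSPH8 stood at -0.32. The rows before MPHOSPH8 had a median of 0.34, with 11 of 20 called higher, and those after it -0.13. MPHOSPH8 lay 0.44 below the median of the rows before it and 0.030 above that of the rows after it. Its difference of -0.17 therefore came from the rows before it. Whether those rows lie on chromosome 13, as MPHOSPH8 does, is not known here. The difference therefore cannot be read as a shortfall against genes beside MPHOSPH8 on its chromosome.

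**Figure D5:**
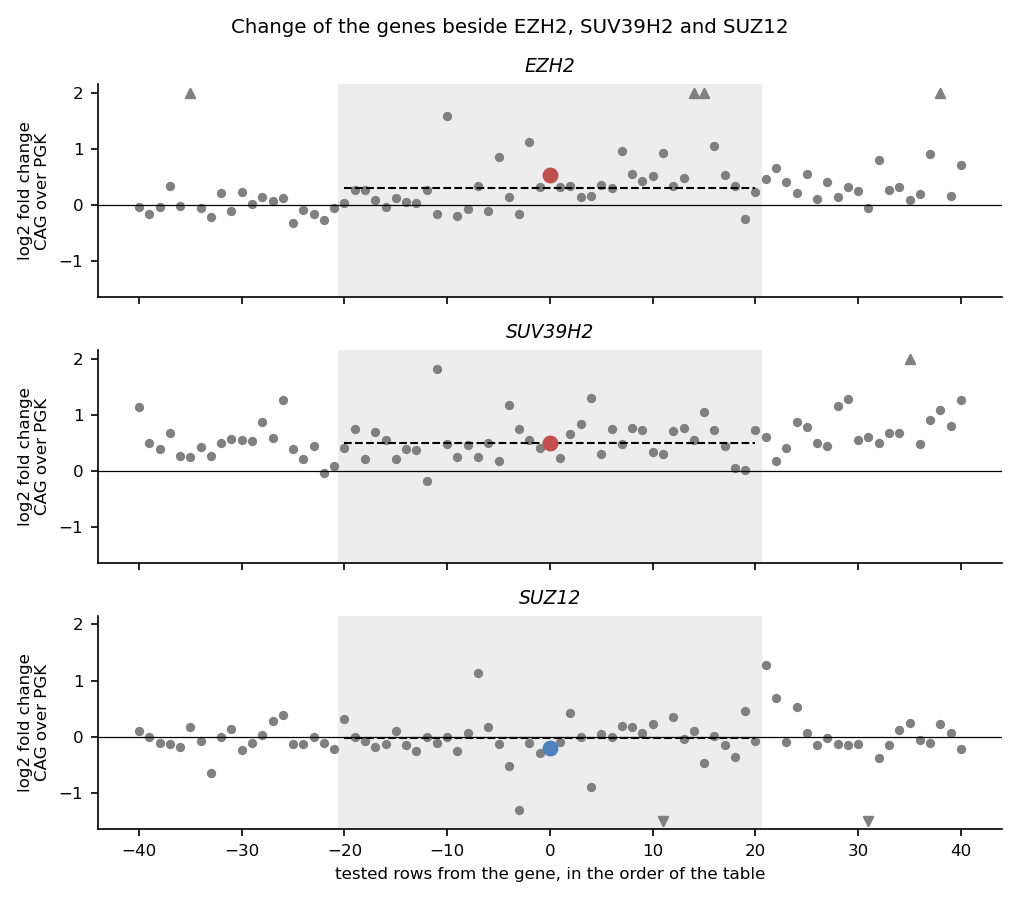
Log2 fold change of CAG over PGK (vertical axes) of the 40 tested rows on each side of EZH2, SUV39H2 and SUZ12 (grey; triangles lie beyond the axis), by distance in tested rows, with the gene itself in colour. The dashed line is the median of the 40 rows in the shaded range, 0.31 for EZH2, 0.49 for SUV39H2 and -0.025 for SUZ12; around SUV39H2 nearly all rows lie above 0.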

How the data were processed

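The authors deposited 1 table of raw counts per Ensembl gene for 5 PRO-seq libraries, whole numbers with unequal totals. Per the submitters' processing notes, the build was hg19 and the tools were featureCounts 2.0.3, HISAT2 2.2.1, Bowtie2 2.5.1, UMI-tools, cutadapt and fastp 0.23.2. What each did, the annotation, the counted part of a gene and the strand setting are not stated there or in the labels. All 5 columns were matched to samples by description and groups came from the titles. Of 20019 rows, 18 without identifier were left out, 13 to 25 counts per library.

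Genes passed edgeR's filterByExpr (minimum count 10, minimum total 15), which kept 13400 of 20001. Counts were scaled by TMM and tested for CAG over PGK with edgeR's quasi-likelihood F test without covariates (edgeR 4.0.16, R 4.3.3), with Benjamini-Hochberg adjustment over all tested genes. The SE was taken from F, as the absolute log2 fold change divided by its square root. The steps were tested on simulated data. The alternatives tried were limma-trend (limma 3.58.1), DESeq2 1.42.0, its size factors in edgeR, upper-quartile scaling, other filters, a replicate block, leaving out each library, and the neighbours' median as an offset. Libraries sharing a replicate number deviated from their line means with correlations of 0.038 and -0.068, and the numbers were not treated as pairs.

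The 10 genes, all described, and the other lists were chosen with earlier results of these data known. Gene names came from the list that chose the 10 genes. The files and the RefSeq table (GRCh38.p14) do not pair other identifiers with names, so paralogs, partner subunits, lists of related chromatin genes and markers of the cell line were not analysed here. RNA-seq was not used here.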

Additional observations from a re-analysis of the deposited data

Results flagged for a closer look

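The 18 rows without a gene identifier, which no comparison used, held 95 counts over the 5 libraries: 21, 15 and 21 in the CAG libraries and 25 and 13 in the PGK libraries. They were singled out only because a signal above the limit of a count of 0 lay outside the genes tested. With 3 and 2 libraries per line, single values were not tested for lying far from the others of their line. The PGK libraries differed from each other by a chi-square per degree of freedom of 4.40, against 1.63 to 1.83 between CAG libraries.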

How the results depend on the processing

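Under 13 alternatives EZH2 was called in all 13 and SUV39H2 in 12, SUZ12 in 6. Of 130 results for single genes, 110 kept their direction and side of the threshold. With the level of row neighbours taken out, 3439 genes were called, 2896 of them among the 5818 called without this step and 543 not, and 1 of the 10 genes was called; the cause was not tested. With the replicate number as a block (replicate block), 4667 genes and 2 of the 10 were called, and SUZ12 had an adjusted p of 0.11 in edgeR. As only the CAG line had a replicate 3, CAG replicate 3 did not inform the comparison of lines in that fit. The effect of the block therefore cannot be told apart from that of losing this library. DESeq2 called 4054 genes and 2 of the 10.

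Leaving out 1 library gave 4754 to 5689 genes, 2 to 4 of the 10 genes called, 4 to 7 of the 10 not overlapping (66.8% to 82.6% of all tested genes), and 7 to 10 of the 10 with the same direction before and after their neighbours' median was subtracted (9 with all libraries). Where 1 PGK library remained, its spread was taken to be that of the CAG line. Log2 fold changes then ran from 0.42 to 0.64 for EZH2, 0.38 to 0.57 for SUV39H2, -0.31 to -0.12 for SUZ12, -0.24 to -0.17 for DNMT3B, -0.30 to 0.061 for MPHOSPH8, -0.011 to 0.11 for MORC2, -0.064 to 0.044 for DNMT3A, -0.083 to 0.040 for EED and -0.062 to 0.086 for CBX5. The difference of CBX5 from its neighbours ran from -0.23 to 0.14, of EZH2 from 0.12 to 0.34, of MPHOSPH8 from -0.39 to -0.0091, and of DNMT3B over DNMT3A from -0.26 to -0.13.

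Uncalled genes near 0 turned sign, and the cause was not tested: EED to 0.011 with upper-quartile factors and 0.026 with neighbours taken out, DNMT3A to -0.0022 with limma-trend and -0.0026 with no filter, and EED's difference from its neighbours to -0.046 with 10 rows per side. Upper-quartile factors called 3195 genes higher and 2499 lower. Counts of 182 to 304 limit DNMT3B, whose SE was 0.097. The related gene lists and the ratios of other paralogs were left out, since the files hold no names for those identifiers.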
